A study of Mus musculus with 12 samples.

Results

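Plasmacytoid dendritic cells carry B220 on their surface, and 6 marker genes of dendritic cells were followed through libraries of mouse spleen cells sorted on B220. The genes were Siglech, Klk1, Cst3, Ccr9, Pacsin1 and Runx2, found by symbol in the deposited tables, and they are 6 of 43613 named items. Cst3 is not particular to plasmacytoid dendritic cells and is counted below among genes of conventional dendritic cells. They were chosen by measured values of this study, because Siglech, Klk1 and Cst3 were low in germinal centre (GC) libraries. The comparison of GC with non-GC cells is therefore given for them as a description with no test, and so is the comparison of genotypes in GC cells for Siglech, Klk1 and Cst3, whose low GC levels led to the choice. The other genotype comparisons are tested. Those of Siglech, Klk1 and Cst3 in non-GC cells use the libraries against which the GC levels were low, and are not wholly independent of the choice.

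The 12 libraries formed 4 groups of 3, all from female mice 6 months old, of C57BL/6 background and with the Sle1b interval, which confers susceptibility to lupus. Ifnar1KO GC cells came from B6.Sle1b.IFNaR1-/- mice, whose type I interferon receptor lacks its Ifnar1 chain, per the labels, and were B220+GL7+CD95+. Ifnar1KO non-GC cells came from mice of the same genotype and were B220+GL7-CD95-. Sle1b GC cells and Sle1b non-GC cells came from B6.Sle1b mice, whose Ifnar1 gene is intact, by the same gates. Dead cells were gated out with a viability dye, cells were sorted from pooled splenocytes into Trizol, and the labels name no further surface marker in the gates. The cDNA was amplified with a SMARTer ultra-low-input kit and made into Nextera XT libraries. Nothing in the labels states that replicate libraries stem from different animals, and the p-values below can reflect no more than the spread of these samples, part of which may be technical.

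Levels are FPKM, a level scaled to transcript length and to the mapped fragments of a library, as the authors computed them for pairs of libraries within 3 batches. Differences are on the scale of log2(FPKM + 1), which understates the change of genes as low as these. A gene with a value of exactly 0 is called listed at 0, since a failed estimate gives the same value, and no ratio of FPKM to such a group is formed. Log2 differences from such a group are given, and their size depends on the pseudocount, the 1 added to each FPKM. Levels of different batches come from tables that were normalized separately, so differences were taken within batches. In bulk RNA, fewer cells of a type and less RNA per cell cannot be told apart.

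Plasmacytoid dendritic cells develop in the bone marrow under the transcription factor E2-2, encoded by Tcf4, and circulate to spleen and lymph nodes. They sense nucleic acids through Tlr7 and Tlr9 and answer with large amounts of type I interferon, the cytokine whose receptor is disrupted in the Ifnar1KO mice. In the mouse they share B220 with B cells, and in lupus they are known as a source of interferon.

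The libraries matched the gates in batches 1 and 2 and much less so in batch 3. Over 5 genes of GC B cells (S1pr2, Mki67, Fas, Bcl6 and Mybl1), the summed level in batches 1 and 2 was 257 to 687 FPKM in Ifnar1KO GC cells against 56.4 to 89.7 FPKM in Ifnar1KO non-GC cells. It was 460 to 877.5 FPKM in Sle1b GC cells against 51.5 to 68.0 FPKM in Sle1b non-GC cells. In batch 3 the same sum was 17.05, 20.05, 14.6 and 16.1 FPKM in Ifnar1KO GC, Ifnar1KO non-GC, Sle1b GC and Sle1b non-GC cells. The summed level of 7 B cell genes was 675.5 FPKM or more in every library of batches 1 and 2 and 25.8 to 199.9 FPKM in batch 3. Batch 3 also held 34.9% to 58.9% of the 14586 items tested at 0, against 12.3% to 26.4% in batches 1 and 2. Results are given with and without batch 3 where it turns them. The knocked-out gene itself went against its label in batches 1 and 2. Ifnar1 was at 13.8 and 15.4 FPKM in Ifnar1KO GC cells against 7.95 and 9.89 FPKM in Sle1b GC cells, and at 50.1 and 69.1 FPKM in Ifnar1KO non-GC cells against 14.3 and 36.1 FPKM in Sle1b non-GC cells. The files do not tell the disrupted part of the gene from the rest, and every genotype direction rests on libraries labelled Ifnar1KO.

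Siglech encodes a sialic acid-binding lectin that marks mouse plasmacytoid dendritic cells and signals with the adaptor DAP12. The gene lies on chromosome 7 at 55768178 to 55778925 of GRCm38, forward strand, and its longest coding transcript in GENCODE M21 has 2301 bases. Klk1, tissue kallikrein, is a serine protease that releases kinins and lies on chromosome 7 at 44225360 to 44229618, forward strand. Cst3 encodes cystatin C, a secreted inhibitor of cysteine proteases that dendritic cells and macrophages make in quantity, and lies on chromosome 2 at 148871722 to 148875692, reverse strand. Ccr9, the receptor of the chemokine CCL25, is annotated on chromosome 9 at 123678439 to 123784330, forward strand. Pacsin1, an adaptor of endocytosis and the actin skeleton best known from neurons, lies on chromosome 17 at 27655509 to 27711482, forward strand. Runx2, a runt-domain transcription factor of bone formation that also guides plasmacytoid dendritic cells out of the marrow, lies on chromosome 17 at 44495987 to 44814797, reverse strand.

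Promoters are shown because E2-2 binds E-boxes and Runx2 binds runt sites, and because Siglech, Klk1, Cst3 and Ccr9 were all lower in Ifnar1KO GC than in Ifnar1KO non-GC cells in batches 1 and 2. RefSeq (build GRCm38.p6) held a promoter of 300 bases for 6 of 6 genes, most of it before the start of the transcript. They were searched on both strands for the E-boxes CAGCTG and CAGGTG, the first of which reads the same on both strands, and for the runt site TGTGGT, and no matches overlapped in the 6 windows. The motifs found are in capitals, written as the forward letters of the gene's own strand, so that CACCTG is CAGGTG and ACCACA is TGTGGT on the opposite strand.

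Siglech chr7:55767934-55768233 (+): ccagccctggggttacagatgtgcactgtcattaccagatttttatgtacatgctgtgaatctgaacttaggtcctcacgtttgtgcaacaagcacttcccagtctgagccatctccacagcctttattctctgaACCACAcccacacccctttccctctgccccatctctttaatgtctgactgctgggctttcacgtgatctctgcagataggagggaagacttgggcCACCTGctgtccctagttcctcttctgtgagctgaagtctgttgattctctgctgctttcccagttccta

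Klk1 chr7:44225110-44225409 (+): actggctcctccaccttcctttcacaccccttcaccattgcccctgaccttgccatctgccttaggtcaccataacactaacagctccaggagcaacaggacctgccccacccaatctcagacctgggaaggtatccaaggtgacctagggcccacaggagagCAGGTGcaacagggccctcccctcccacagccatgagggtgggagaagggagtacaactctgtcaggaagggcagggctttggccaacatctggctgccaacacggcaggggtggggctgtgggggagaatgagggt

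Cst3 chr2:148875463-148875762 (-): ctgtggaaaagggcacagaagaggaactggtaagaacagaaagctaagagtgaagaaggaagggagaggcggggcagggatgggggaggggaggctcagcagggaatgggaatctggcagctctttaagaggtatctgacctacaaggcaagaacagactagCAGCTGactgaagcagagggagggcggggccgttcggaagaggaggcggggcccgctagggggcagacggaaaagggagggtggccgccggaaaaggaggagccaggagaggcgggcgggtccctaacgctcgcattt

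Ccr9 chr9:123766961-123767260 (+): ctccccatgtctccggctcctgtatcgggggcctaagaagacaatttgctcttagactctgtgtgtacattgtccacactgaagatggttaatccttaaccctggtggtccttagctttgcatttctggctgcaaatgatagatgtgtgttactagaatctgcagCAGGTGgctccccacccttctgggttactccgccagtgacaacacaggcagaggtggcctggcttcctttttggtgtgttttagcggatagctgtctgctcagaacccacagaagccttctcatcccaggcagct

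Each of these 4 promoters held 1 match to the E-boxes searched for, CAGGTG in Siglech, Klk1 and Ccr9 and CAGCTG in Cst3. The Pacsin1 and Runx2 windows held 0 such matches. Other forms of the E-box were not searched for and can stand in any of the windows. The 4 genes were set apart by the contrast on which the set was chosen, and nothing is read from the split. Of 32851 mouse promoters of this length, 16.3% held CAGCTG, 20.2% held CAGGTG and 32.9% held either. The runt site stood once in the Siglech and Pacsin1 windows and at 3 places in the Runx2 window, against 16.8% of all promoters with at least 1. A match is a string of letters, and binding was not measured in these cells.

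Siglech was listed at 0 in Ifnar1KO GC cells in batches 1, 2 and 3. In Ifnar1KO non-GC cells it was at 7.02 FPKM in batch 1 and 4.86 FPKM in batch 2 and was listed at 0 in batch 3. In Sle1b GC cells it was at 0.203 FPKM in batch 1, was listed at 0 in batch 2 and was at 0.829 FPKM in batch 3, and in Sle1b non-GC cells it was at 2.46, 2.98 and 11.0 FPKM in the same order of batches. Every Sle1b non-GC library thus lay above every GC library of either genotype, while the Ifnar1KO groups overlapped at 0 through batch 3. The fitted log2 difference of GC against non-GC cells was -1.85 in Ifnar1KO mice and -2.08 in Sle1b mice, each with an SE of 0.79. In Ifnar1KO mice it was -2.78 without batch 3, -3.05 without the non-GC library of batch 3 and -1.15 without that of batch 1, and in Sle1b mice it was -1.29 without the non-GC library of batch 3. One read on Siglech corresponded to 0.0557 to 0.19 FPKM, so its level in non-GC cells of batches 1 and 2 came from about 34 to 126 reads and that in Sle1b GC cells of batch 1 from about 2.

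Klk1 was seen in 3 of 12 libraries, all non-GC. It was at 2.89 FPKM in batch 1 and 3.33 FPKM in batch 2 of Ifnar1KO non-GC cells and at 2.12 FPKM in batch 1 of Sle1b non-GC cells. It was listed at 0 in 6 of 6 GC libraries and in the other 3 non-GC libraries, so the groups overlapped at 0. These levels correspond to about 11 to 19 reads. The fitted difference of GC against non-GC cells was -1.36 in Ifnar1KO and -0.55 in Sle1b mice, each with an SE of 0.57. Klk1 has close relatives in the Klk1b genes beside it and overlaps the pseudogene Gm10109 on the opposite strand. Strand is not stated to have been kept, so its reads may be shared with them. Gm10109 was listed at 0 in the 3 libraries with Klk1.

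Cst3 was low in Sle1b GC cells and reached several FPKM in Ifnar1KO GC cells. In Ifnar1KO GC cells it was at 4.77 FPKM in batch 1 and 10.5 FPKM in batch 2 and was listed at 0 in batch 3, and in Ifnar1KO non-GC cells it was at 15.7 and 12.2 FPKM and likewise listed at 0 in batch 3. In Sle1b GC cells it was at 0.816 FPKM in batch 1 and listed at 0 in batches 2 and 3, whereas Sle1b non-GC cells had 21.1, 15.9 and 12.1 FPKM in batches 1, 2 and 3. All Sle1b non-GC libraries lay above all Sle1b GC libraries, whereas the Ifnar1KO gates overlapped at 0 through batch 3 and were apart in batches 1 and 2. The fitted difference of GC against non-GC cells was -3.80 in Sle1b and -0.58 in Ifnar1KO mice, each with an SE of 0.78. Whether these differences differ from each other was not tested, since the first of them chose the gene.

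Ccr9, unlike Siglech, kept a level above 0 in every library. It was at 1.28, 2.94 and 0.0765 FPKM in Ifnar1KO GC cells against 3.5, 4.47 and 0.212 FPKM in Ifnar1KO non-GC cells of batches 1, 2 and 3. Sle1b GC cells had 0.836, 1.61 and 1.48 FPKM, against 1.74, 6.10 and 1.28 FPKM in Sle1b non-GC cells of the same batches. Within a batch the GC library was the lower in 5 of 6 pairs, the exception being Sle1b in batch 3. The groups nevertheless overlapped across batches, and the fitted differences of GC against non-GC cells were -0.54 in Ifnar1KO and -0.63 in Sle1b mice with an SE of 0.59. With values quantile-normalized within batches, the Ifnar1KO difference became 0.04. Ccr9 shares its stretch of chromosome 9 with Lztfl1, a ciliary trafficking gene on the opposite strand that overlaps it. Lztfl1 was at 11.1 and 2.1 FPKM in Ifnar1KO GC cells of batches 1 and 2, against 6.85 and 17.1 FPKM in Ifnar1KO non-GC cells. In batch 1 of Ifnar1KO mice the GC library was thus the higher, unlike for Ccr9. In Sle1b mice it was at 5.38 and 7.51 FPKM in GC cells against 15.4 and 14.6 FPKM in non-GC cells. Its part in the Ccr9 values was not tested.

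Pacsin1 did not follow the gates. It was at 1.76 and 1.39 FPKM in Ifnar1KO GC cells against 1.67 and 1.71 FPKM in Ifnar1KO non-GC cells of batches 1 and 2. Sle1b GC cells had 1.92 and 4.02 FPKM, against 1.89 and 0.548 FPKM in Sle1b non-GC cells of those batches. All 4 libraries of batch 3 were listed at 0. The gates overlapped in Ifnar1KO mice, and in Sle1b mice only batch 2 held a gap of more than 0.1 FPKM, with the GC library above the non-GC one. The fitted differences of GC against non-GC cells were -0.05 in Ifnar1KO and 0.57 in Sle1b mice, with an SE of 0.52.

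Runx2 varied widely within groups and followed neither gate nor batch. Ifnar1KO GC cells had 5.10, 0.283 and 3.67 FPKM in batches 1, 2 and 3, against 4.92, 10.8 and 2.22 FPKM in Ifnar1KO non-GC cells. Sle1b GC cells had 0.479, 8.48 and 23.7 FPKM, against 4.11, 5.51 and 11.2 FPKM in Sle1b non-GC cells. The highest and the second lowest of the 12 values were both in Sle1b GC cells, in batches 3 and 1, and all groups overlapped. The fitted differences of GC against non-GC cells were -0.87 in Ifnar1KO and -0.08 in Sle1b mice, with an SE of 0.93. Runx2 overlaps Supt3 and the antisense gene Runx2os2, and Runx2os2 was at 3.54 and 3.63 FPKM in Ifnar1KO non-GC cells of batches 1 and 2 and listed at 0 in the other 10 libraries.

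**Figure D1:**
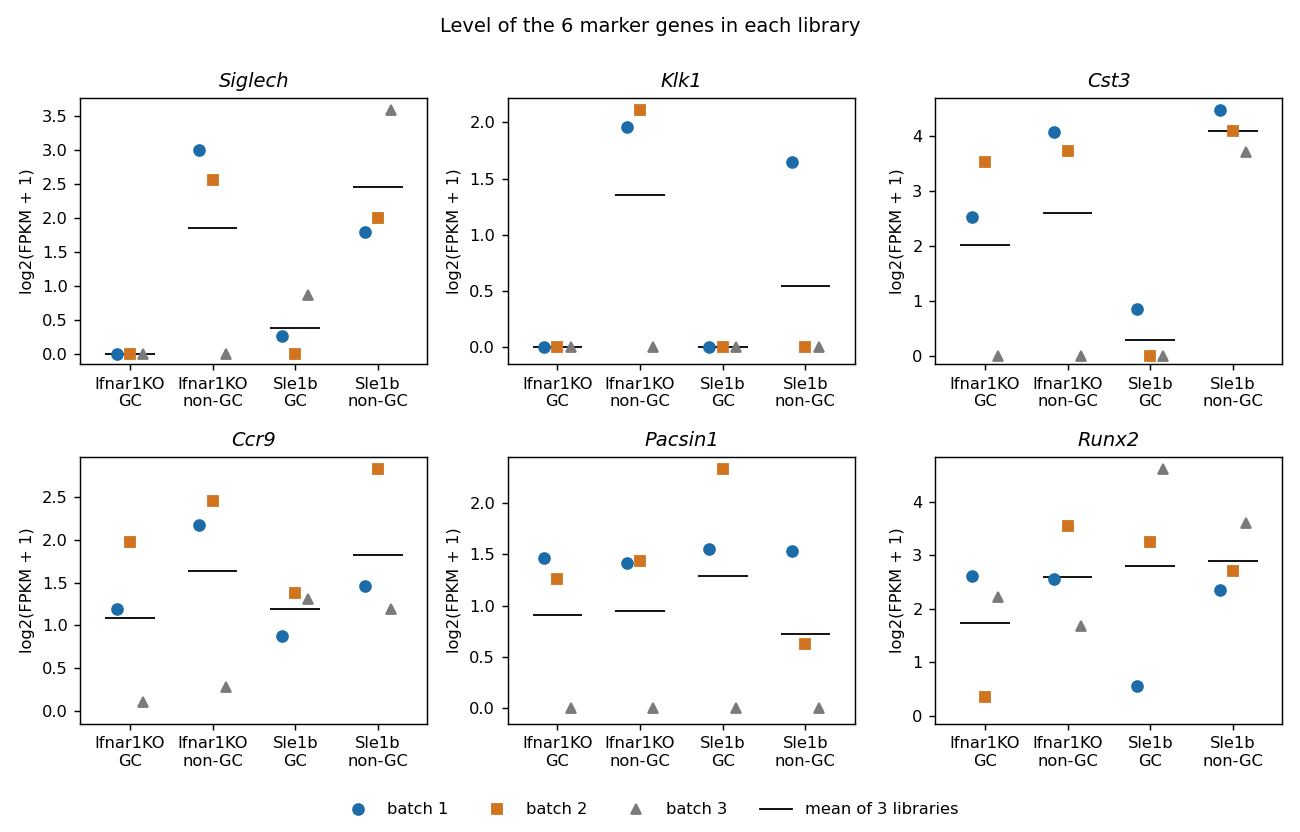
Level of each of the 6 genes as log2(FPKM + 1) in the 12 libraries, by group on the horizontal axis, with a symbol per batch and a line at the mean of the 3 libraries of a group. Siglech and Klk1 lie below 1 in all GC libraries, Cst3 lies above 3 in all Sle1b non-GC libraries and below 1 in all Sle1b GC libraries, and Pacsin1 and Runx2 overlap between gates.

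Counted over the batches, 4 of 6 genes (Siglech, Klk1, Cst3 and Ccr9) were lower in GC cells of Ifnar1KO mice in both batch 1 and batch 2, where 40.4% of the 14586 items tested were. In Sle1b mice 3 of 6 genes (Siglech, Cst3 and Ccr9) were, against 28.8% of items, and the same 3 were lower in both genotypes, against 18.2%. With batch 3 included, 1 of 6 genes (Ccr9) was lower in all 3 batches of Ifnar1KO mice, against 19.2%. In Sle1b mice 2 of 6 (Siglech and Cst3) were, against 14.2%, and 0 of 6 were in both genotypes, against 5.83%. Since the genes were chosen on this contrast, nothing is read from these counts.

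The genotype comparison asks whether loss of the interferon receptor changed the markers within a gate. No gene was called in either gate. In limma, with batch as a block and Benjamini-Hochberg adjustment over 14586 items, 0 of 6 genes and 0.0% of all items passed 0.05 in GC cells, where nothing is read from the count for Siglech, Klk1 and Cst3, and likewise 0 of 6 and 0.0% in non-GC cells. Unadjusted p-values under 0.05 numbered 959 of 14586 in GC cells and 243 in non-GC cells. Without batch 3, and with the filter on low values redone on the 8 remaining libraries, 1 item was called in GC cells and 0 in non-GC cells, with 1158 and 185 unadjusted p-values under 0.05 among 12230 items.

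Siglech was higher in Ifnar1KO than in Sle1b non-GC cells in batches 1 and 2 and lower in batch 3. The within-batch differences were 1.21, 0.56 and -3.59 on the log2 scale, the last from a library listed at 0. The fitted difference was -0.61 with an SE of 0.79 (limma, adjusted p = 1, unadjusted p = 0.458), and without batch 3 it turned to 0.89. In GC cells the fitted difference was -0.38 with the same SE, given with no test.

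Klk1 was listed at 0 in all GC cells, so no genotype difference could be measured there. In non-GC cells the Ifnar1KO library was higher by 0.32 in batch 1 and by 2.11 in batch 2, where Klk1 was listed at 0 in Sle1b cells, and both were listed at 0 in batch 3. The fitted difference was 0.81 with an SE of 0.57 (limma, adjusted p = 1, unadjusted p = 0.177). It was 1.215 without batch 3 and 0.159 without batch 2.

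The fitted differences of Cst3 between genotypes had opposite signs in the 2 gates, and nothing is read from this, since GC values led to the choice. Its GC levels in batches 1 and 2 correspond to about 15 and 18 reads in Ifnar1KO cells. In Sle1b cells they correspond to about 2 and 0 reads. In GC cells the Ifnar1KO library was higher by 1.67 in batch 1 and by 3.52 in batch 2, with both genotypes listed at 0 in batch 3. The fitted difference was 1.73 with an SE of 0.78, given with no test because the low Sle1b GC values helped to choose the gene. It was 2.59 without batch 3 and 0.834 without batch 2, and it was 1.12 without the Ifnar1KO GC library of batch 2 and 1.15 without the Sle1b GC library of batch 2. In non-GC cells the Ifnar1KO library was lower in each batch, with differences of -0.41, -0.35 and -3.71 and a fitted difference of -1.49 and the same SE (limma, unadjusted p = 0.0787, adjusted p = 1). Without batch 3, where the Ifnar1KO library was listed at 0, the non-GC difference was -0.38, smaller in size than those of Klk1, Siglech and Runx2 in the same setting. It did not pass the threshold, and the difference between the gates was not tested.

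Ccr9, Pacsin1 and Runx2 did not pass the test in either gate. Ccr9 differed by -0.10 in GC cells (limma, adjusted p = 0.984) and by -0.19 in non-GC cells (adjusted p = 1), both with an SE of 0.59, and without batch 3 these values turned to 0.45 and 0.17. Pacsin1 differed by -0.38 in GC cells (limma, adjusted p = 0.887) and by 0.23 in non-GC cells (adjusted p = 1), with an SE of 0.52. Runx2 differed by -1.08 in GC cells (limma, adjusted p = 0.833) and by -0.29 in non-GC cells (adjusted p = 1), with an SE of 0.93. Its within-batch values in GC cells were 2.04, -2.89 and -2.40, and without batch 3 its non-GC difference turned to 0.53. In batches 1 and 2 alike, 3 of 6 genes (Siglech, Klk1 and Runx2) were higher in Ifnar1KO non-GC cells, where 32.3% of all items were. In GC cells 2 of 6 (Cst3 and Ccr9) were, against 14.3% of items. Both counts hold genes whose levels led to the choice, and nothing is read from them.

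**Figure D2:**
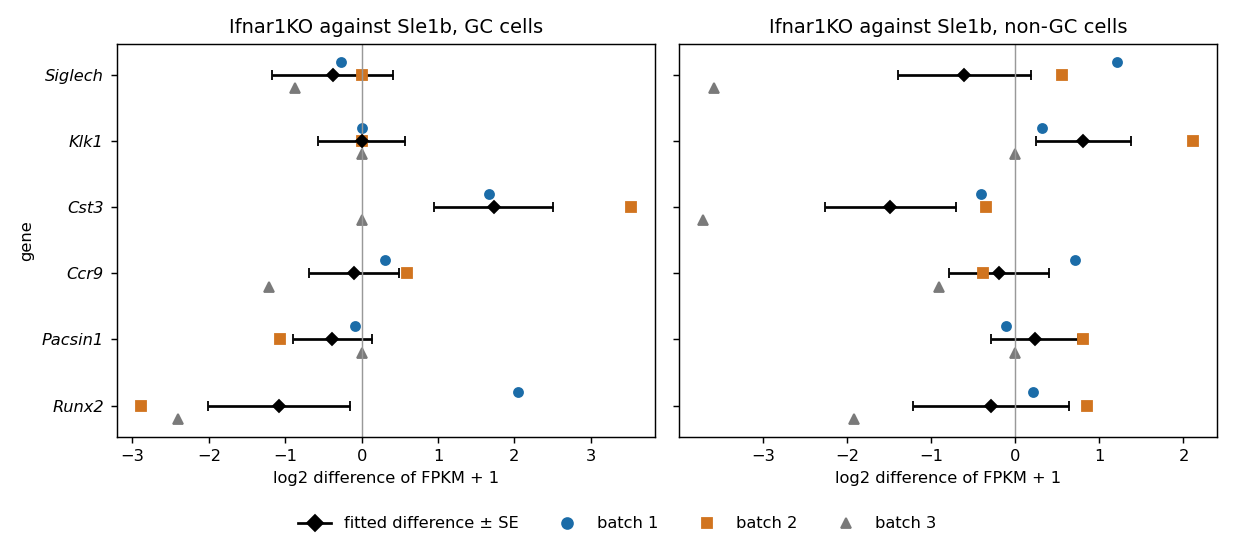
Differences between Ifnar1KO and Sle1b libraries in GC cells and in non-GC cells on the log2 scale of FPKM + 1, with a diamond and bar for the fitted difference and its SE and a symbol for each batch. Batch 3 lies far to the left for Siglech and Cst3 in non-GC cells, at -3.59 and -3.71, and Cst3 lies to the right in GC cells in batches 1 and 2.

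The wider set held 30 genes known from plasmacytoid dendritic cells, of which 5 are described above and 22 passed the filter on low values. All 30 were listed in the files. In batches 1 and 2, Ifnar1KO GC cells had 15 to 16 of the 30 listed at 0 against 2 to 4 in Ifnar1KO non-GC cells, and Sle1b GC cells had 10 to 14 against 7 to 9 in Sle1b non-GC cells. Of the 22 that passed the filter, 7 to 8 were at 0 in Ifnar1KO GC against 0 to 1 in Ifnar1KO non-GC cells, and 4 to 6 in Sle1b GC against 2 in Sle1b non-GC cells. Over the 14586 items tested, which passed the same filter, the share at 0 in these batches was 20.8% to 26.4% in Ifnar1KO GC against 12.3% to 13.5% in Ifnar1KO non-GC cells, and 17.0% to 17.3% in Sle1b GC against 15.5% to 18.9% in Sle1b non-GC cells. In batch 3 the list had 14 to 18 of 30 at 0 in every group. Siglech and Klk1, chosen for their low GC levels, are part of all these counts, and nothing is read from them.

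Several genes of that list were far above Siglech in GC and non-GC cells of batches 1 and 2. Cybb, the catalytic chain of the phagocyte NADPH oxidase, was at 98.2 and 200.7 FPKM in Ifnar1KO GC cells against 130.3 and 139 FPKM in Ifnar1KO non-GC cells of batches 1 and 2, and at 65.1 and 200.4 FPKM in Sle1b GC against 131 and 169 FPKM in Sle1b non-GC cells. Ugcg, which makes glucosylceramide, was at 20.4 and 22.4 FPKM in Ifnar1KO GC against 47.5 and 68.7 FPKM in Ifnar1KO non-GC cells, and at 15.2 and 57.0 FPKM in Sle1b GC against 32.1 and 50.8 FPKM in Sle1b non-GC cells. In batch 2 the GC library was thus the higher for Cybb in both genotypes and for Ugcg in Sle1b mice. Havcr1, which encodes the phosphatidylserine receptor TIM-1, ran the other way. It was at 34.6 and 55.8 FPKM in Ifnar1KO GC against 8.26 and 5.63 FPKM in Ifnar1KO non-GC cells, and at 55.4 and 38.9 FPKM in Sle1b GC against 0.876 and 3.80 FPKM in Sle1b non-GC cells. Rpgrip1, a photoreceptor cilium gene, was at 6.61 to 29.3 FPKM and Nucb2, which encodes a calcium-binding precursor of nesfatin, at 3.41 to 9.31 FPKM over the 8 libraries of batches 1 and 2.

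At the other end, 6 of 30 genes of the list, Klk1 among them, were above 0 in non-GC libraries only, which is 20%, and 0 of 30 in GC libraries only. Of the 27364 items above 0 in at least 1 library, 14.9% were above 0 in non-GC libraries only and 11.3% in GC libraries only, and nothing is read from the difference. The genes named here were picked after their values were seen. Klra17, a lectin-like receptor gene, was at 2.0 FPKM in batch 1 of Ifnar1KO non-GC cells and at 1.34 and 1.83 FPKM in batches 1 and 2 of Sle1b non-GC cells, and was listed at 0 elsewhere. Cox6a2, a muscle-type subunit of cytochrome oxidase, was at 0.967 FPKM in batch 2 of Ifnar1KO non-GC and 1.57 FPKM in batch 1 of Sle1b non-GC cells and listed at 0 elsewhere. Cd209d, Cd300c and Dntt were also listed at 0 in 6 of 6 GC libraries and were above 0 in 1, 2 and 1 of 6 non-GC libraries. Other rare genes did not follow the gates. Upb1, an enzyme of pyrimidine breakdown, was above 0 in 5 of 6 GC and 4 of 6 non-GC libraries, and Epha2, an ephrin receptor, in 3 of 6 of each with its highest level of 10.4 FPKM in Sle1b GC cells of batch 3. Ptprf, a receptor phosphatase, was above 0 in 2 GC libraries and 1 non-GC library. Lag3 was at 33.5 FPKM in Ifnar1KO GC cells of batch 3 and at 0.449 FPKM or less in the other 11 libraries.

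**Figure D3:**
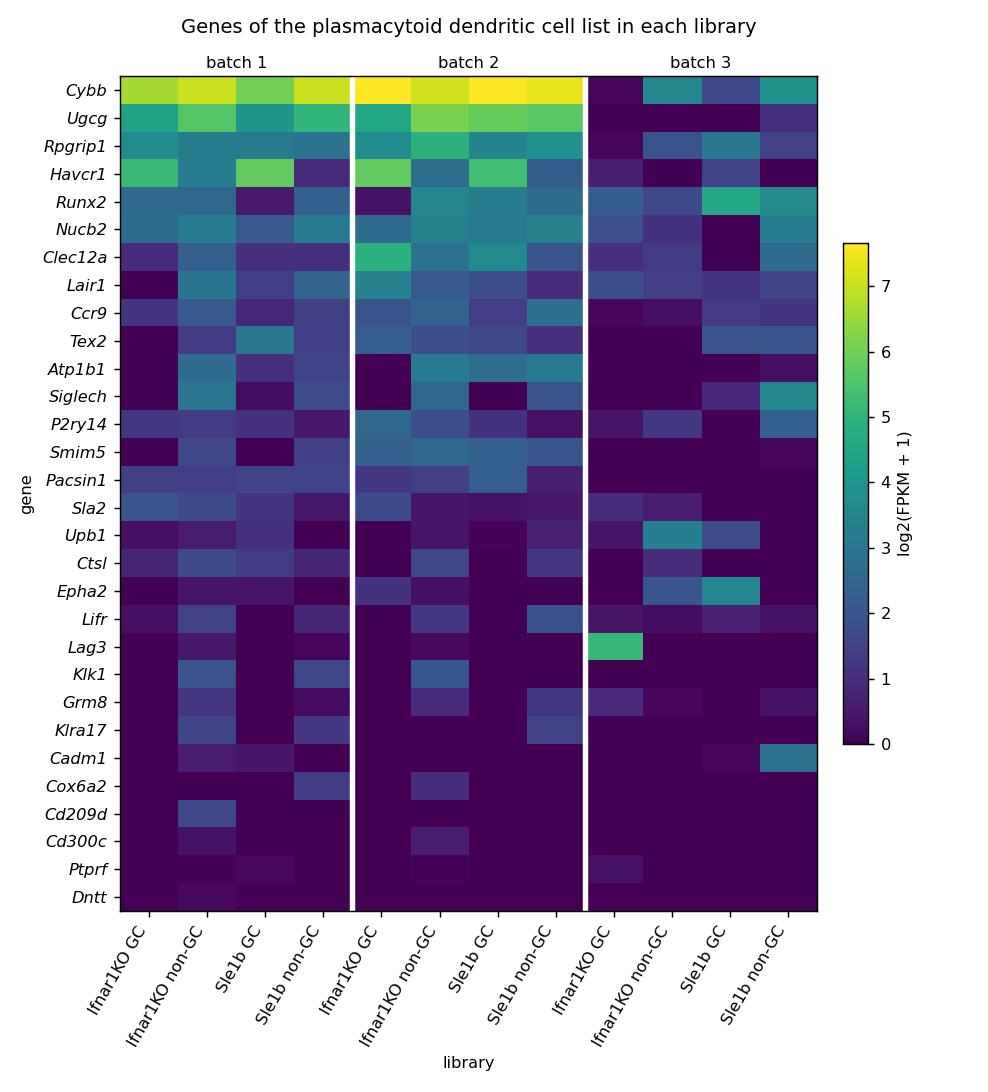
Level of the 30 genes of the plasmacytoid dendritic cell list as log2(FPKM + 1), with libraries on the horizontal axis grouped by batch and genes ordered by their mean. Klk1, Klra17 and Cox6a2 are dark in the GC columns of batches 1 and 2, Cybb and Ugcg are bright in all 8 libraries of those batches, and batch 3 is dark for most genes.

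Of the 22 genes that passed the filter, 10 (45.5%) were lower in Ifnar1KO GC than in Ifnar1KO non-GC cells in both batch 1 and batch 2, against 40.4% of all items, and 6 (27.3%) were in Sle1b mice, against 28.8%. The median difference of GC against non-GC cells was -0.58 in Ifnar1KO and -0.34 in Sle1b mice, against -0.39 and -0.11 over all items. These counts hold the genes that chose the set, and nothing is read from them. Between genotypes, 0 of 22 were called in either gate (limma). The median was -0.25 in GC cells, as over all items, and 0.24 in non-GC cells against 0.01 over all items. In non-GC cells 13 of 22 were higher in the Ifnar1KO library in batches 1 and 2, against 32.3% of all items. With batch 3 included 3 of 22 were, against 1574 of 14586 items, and the median of the list within batch 3 was -0.175. Siglech, Klk1, Klra17 and Lifr, which passed the filter wholly through non-GC libraries, are among the 22, and nothing is read from these counts. Without batch 3, the median in GC cells was 0.01, against -0.16 over all items.

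Of the genes that plasmacytoid dendritic cells share with B cells, the 6 most abundant stood above Siglech within each library of batches 1 and 2. Others of the list were low there. Cd4 and Mpeg1, named after their values were seen, reached at most 8.44 and 8.04 FPKM in these batches. Ptprc, whose product carries the B220 epitope, was at 371 and 782 FPKM in Ifnar1KO GC against 636 and 775.5 FPKM in Ifnar1KO non-GC cells of batches 1 and 2, and at 422 and 773 FPKM in Sle1b GC against 619 and 751 FPKM in Sle1b non-GC cells. Ly6d, an early lymphoid surface marker, was at 38.0 and 5.61 FPKM in Ifnar1KO GC against 163 and 45.5 FPKM in Ifnar1KO non-GC cells, and at 49.0 and 3.59 FPKM in Sle1b GC against 160 and 42.5 FPKM in Sle1b non-GC cells. For Ly6d the GC library was the lower one in each pair of these batches. Of the other abundant genes of this list, Blnk, a B cell receptor adaptor, was at 86.8 to 293.5 FPKM, and the lymphoid transcription factors Bcl11a and Spib were at 14.4 to 206 FPKM and 39.5 to 139 FPKM in the 8 libraries of batches 1 and 2. Tcf4, which encodes E2-2, was at 26.3 to 86.2 FPKM in these libraries, with the highest value in Sle1b GC cells of batch 1. Bst2, the antigen of a common antibody to plasmacytoid dendritic cells, was added after its values were seen. It was listed at 0 in Ifnar1KO GC cells against 1.63 and 3.17 FPKM in Ifnar1KO non-GC cells, and was at 0.947 FPKM and listed at 0 in Sle1b GC cells against 3.31 and 4.94 FPKM in Sle1b non-GC cells. Of 17 genes of the shared list, 16 had a value used here and 16 passed the filter, and 0 were called between genotypes in either gate (limma). Tlr7, the sensor of single-stranded RNA, also named after its values were seen, was at 7.03 and 0.684 FPKM in Ifnar1KO non-GC against 13.3 and 27.5 FPKM in Sle1b non-GC cells of batches 1 and 2. Its fitted difference was -2.14 with an SE of 0.82 (limma, unadjusted p = 0.0222, adjusted p = 1).

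Relatives and partners of the 6 genes were followed family by family. Siglecg, an inhibitory lectin of B cells from the same family as Siglech, was at 48.0 and 72.4 FPKM in Ifnar1KO GC against 56.7 and 66.1 FPKM in Ifnar1KO non-GC cells of batches 1 and 2, and at 81.0 and 61.2 FPKM in Sle1b GC against 48.1 and 61.2 FPKM in Sle1b non-GC cells. Its gates overlapped in Ifnar1KO mice, unlike those of Siglech in these batches. Siglec1, a macrophage lectin named after its values were seen, stayed at 0.769 FPKM or less in all 12 libraries.

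Ccr6, the receptor of CCL20, was at 33.6 and 33.7 FPKM in Ifnar1KO GC against 62.4 and 84.9 FPKM in Ifnar1KO non-GC cells, and at 2.87 and 65.0 FPKM in Sle1b GC against 59.1 and 108 FPKM in Sle1b non-GC cells of batches 1 and 2. The GC library was the lower of each pair in these batches, as for Ccr9. In batch 3 the difference of GC against non-GC cells was -2.28 in Ifnar1KO and 0.10 in Sle1b mice. Runx1, the runt-domain factor of blood cell development, was at 23.9 and 60.6 FPKM in Ifnar1KO GC against 62.1 and 119 FPKM in Ifnar1KO non-GC cells, and at 22.7 and 66.1 FPKM in Sle1b GC against 46.5 and 93.9 FPKM in Sle1b non-GC cells. In batch 3 the difference of GC against non-GC cells was -1.93 in Ifnar1KO and 0.09 in Sle1b mice. Runx2 did not share the order of batches 1 and 2. Their common partner Cbfb was at 26.2 to 84.4 FPKM in the 8 libraries of these batches.

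Among the cysteine proteases that cystatin C can inhibit, Ctss, cathepsin S of the antigen-presentation pathway, was at 15.3 and 7.09 FPKM in Ifnar1KO GC against 111 and 73.3 FPKM in Ifnar1KO non-GC cells of batches 1 and 2, and at 29.3 and 32.9 FPKM in Sle1b GC against 102.5 and 115 FPKM in Sle1b non-GC cells. The GC library was the lower of each pair in these batches and the higher in batch 3, at 2.37 FPKM in Ifnar1KO GC cells and listed at 0 in Ifnar1KO non-GC cells, and at 1.46 FPKM in Sle1b GC against 0.341 FPKM in Sle1b non-GC cells. Ctsh, cathepsin H, was at 40.7 and 124 FPKM in Ifnar1KO GC against 113 and 125 FPKM in Ifnar1KO non-GC cells, and at 62.1 and 102 FPKM in Sle1b GC against 71.9 and 133 FPKM in Sle1b non-GC cells. Of 47 relatives and partners, 18 passed the filter and 0 were called between genotypes in either gate (limma). Their median genotype difference was -0.14 in GC and 0.16 in non-GC cells, and their median difference of GC against non-GC cells was -0.79 in Ifnar1KO and -0.27 in Sle1b mice.

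Genes listed for other cells had levels above 0, some of them above Siglech, Klk1 and Cst3. A few genes make up much of each sum below, so the sums do not tell whether such cells were present. The part of such cells in the results above was not tested. Over 20 genes of monocytes and macrophages, the summed level in batches 1 and 2 was 70.0 and 42.2 FPKM in Ifnar1KO GC cells. It was 162 and 110.0 FPKM in Ifnar1KO non-GC cells. In Sle1b mice the sum was 247.5 and 114 FPKM in GC against 151 and 176 FPKM in non-GC cells, so the GC sum was the higher in batch 1. Between 3 and 11 of the 20 were at 0 in these libraries, and C1qa was listed at 0 in all 12. Ctss was the largest part of the non-GC sums, at 111 and 73.3 FPKM in Ifnar1KO and 102.5 and 115 FPKM in Sle1b mice. Of the 14 genes tested, 4 were lower and 3 higher in GC cells in both batches of Ifnar1KO mice. In Sle1b mice 2 were lower and 4 higher. Over all items 40.4% and 28.8% were lower in Ifnar1KO and Sle1b mice. Ctss, Ctsb and Ccr2 stand in this list and among the relatives and partners. Over 20 genes of conventional dendritic cells, Cst3 among them, the sum in batches 1 and 2 was 73.8 and 91.8 FPKM in Ifnar1KO GC cells. It was 99.7 and 90.4 FPKM in Ifnar1KO non-GC cells, so the GC sum was slightly the higher in batch 2. In Sle1b mice the sum was 84.3 and 55.1 FPKM in GC against 89.1 and 84.9 FPKM in non-GC cells. Between 4 and 11 of these 20 were at 0. Wdfy4 was the largest part of the non-GC sums, at 46.6 and 33.2 FPKM in Ifnar1KO and 36.4 and 26.5 FPKM in Sle1b mice. Of the 13 genes tested, 5 were lower and 4 higher in GC cells in both batches of Ifnar1KO mice, and 4 were lower and 4 higher in Sle1b mice. Batf3 and Clec4a4 were listed at 0 in all 12 libraries, and Xcr1, which marks cross-presenting dendritic cells, stayed at 1.5 FPKM or less. Over 10 genes of T and NK cells the sum in batches 1 and 2 was 20.0 and 2.18 FPKM in Ifnar1KO GC cells. It was 18.8 and 20.8 FPKM in Ifnar1KO non-GC cells, so the GC sum was slightly the higher in batch 1. In Sle1b mice the sum was 28.3 and 28.2 FPKM in GC against 32.3 and 44.7 FPKM in non-GC cells. Of the 10 genes, 0 to 8 were at 0 in these libraries. Called between genotypes (limma) were 0 of 13 conventional dendritic cell genes, 0 of 14 monocyte and macrophage genes and 0 of 7 T and NK cell genes tested, in either gate.

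The genes whose levels ran most like each marker were found over 12 libraries, with the mean of each batch removed. For Siglech the highest Pearson correlations were with Bckdhb (0.970), a subunit of branched-chain ketoacid dehydrogenase, Vav3 (0.966), a guanine nucleotide exchange factor, and Fbxo30 (0.961). They were followed by Rabepk, Gm14389, Gm26778, Tpgs2, Kantr, Rpl5-ps1 and RP23-332O18.2, all at 0.95 to 0.96. For Klk1 they were Gm11724 (1.00), 1600002K03Rik (0.994), 1110007C09Rik (0.978), 0610009B22Rik (0.977) and Qsox2 (0.971), and for Cst3 Rab6a (0.972), Gm23193 (0.953), Pltp (0.949), Gm4853 (0.946) and D3Ertd751e (0.943). The libraries share batches and depth, so these values are a description. Over the 8 libraries of batches 1 and 2, the gene most like Siglech was Mon2 (0.994) and that most like Cst3 was Tprgl (0.986). Gm11724 was again first for Klk1 with the same correlation. Klk1 was listed at 0 throughout batch 3, so this is no separate check. The Klk1 correlations rest on 3 libraries with Klk1 above 0, at about 11 to 19 reads.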

How the data were processed

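The submitters' processing notes name the build GRCm38 (mm10) and the tools TopHat2 2.0.9, Bowtie2 2.1.0, Cuffdiff, Cufflinks 2.2.1 and CASAVA. The 17 deposited tables give, per the file headers, the FPKM of 2 libraries of a batch for 506504 loci, of which 45241 carry a gene name, and each table was normalized on its own by the authors. Batch 1 was joined from 5 tables, and one that sets its Sle1b libraries side by side was not used here.

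Loci of a symbol were summed, symbols sharing a locus were kept together, and tables of a batch were joined by 1 factor per library, found by least squares. This left 43613 items after 9 failed ones, Irf8 among them, were dropped. Items with at least 1 FPKM in at least 3 libraries were tested. All 6 markers passed, Siglech and Klk1 wholly through non-GC libraries. All items tested were fitted with limma 3.58.1 (R 4.3.3) on log2(FPKM + 1), two-sided, with batch as a block, a variance trend, 6 residual degrees of freedom and Benjamini-Hochberg adjustment at 0.05, and the fit was tested on simulated data. The batch number is the replicate number in all 12 libraries. The block rests on the tables, which pair libraries only within batches. Deviations from the group mean correlated within batches 1, 2 and 3 by at least 0.288, 0.403 and 0.524.

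Low values gave the depth. On loci of 800 to 2500 bases these were whole multiples of 1 read, within 0.1 read and up to 5.5 reads, for 100% of low loci, and 1 read on 1 kb was worth 0.119 to 0.408 FPKM. No count test was run on these reads, and read numbers are estimates. Deposited loci had the chromosome, start and end of the GENCODE M21 gene (GRCm38) in 71.2% of 24650 single-gene cases. Among the markers, Siglech and Cst3 matched. The deposited locus of Ccr9 ran wider than the gene, from 123635388 to 123851899. That of Runx2 ran on to 45119290, that of Klk1 began at 44221449, and that of Pacsin1 ended at 27711106. What these bounds do to the levels was not tested. Lists and markers were chosen with earlier results of these data known. Besides the markers, the text names the 6 genes of highest mean level of the lists of plasmacytoid dendritic cell, shared and related genes, and the 10 genes most like Siglech and 5 each most like Klk1 and Cst3. Some genes of the lists are not reported here and are left out of their counts. Alternatives were other pseudocounts, filters, joining, scaling and variance models, no batch block, and leaving out each library or batch.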

Additional observations from a re-analysis of the deposited data

How the results depend on the processing

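Of the genotype differences of the 6 genes, 0 passed the threshold under any alternative. Nothing is read from this for Siglech, Klk1 and Cst3 in GC cells. Of the recomputed differences, 18 changed direction and 274 did not, but many of the 274 could not change. Klk1 was listed at 0 in all GC cells. Leaving out a library of the other gate returned the same estimate, as did dropping the batch block, the variance trend or the filter. The 274 are therefore no measure of stability. With no replicate block 0 genes were called in GC cells and 0 in non-GC cells, as with it, and the fitted differences were unchanged because every batch holds all 4 groups (Siglech -0.61 in non-GC cells). The batch block is also the replicate pairing. The highest correlation with another batch was 0.454 for batches 1 and 2 and -0.273 for batch 3.

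In GC cells 1 gene was called without batch 3 with the filter redone, and 0 to 1 when single libraries were left out (1 without Ifnar1KO GC 2, Sle1b GC 2 or Sle1b GC 3). Without batch 3, under either filter, Ifnar1KO against Sle1b turned to 0.885 for Siglech, 0.168 for Ccr9 and 0.532 for Runx2 in non-GC cells and to 0.452 for Ccr9 in GC cells, and without batch 2 to -0.055 for Pacsin1 in non-GC cells. Leaving out single libraries moved Siglech between -1.31 and 0.591, Ccr9 between -0.558 and 0.236, Pacsin1 between -0.124 and 0.424 and Runx2 between -0.949 and 0.677 in non-GC cells, and Cst3 between -1.98 and -0.637 in non-GC and 1.12 and 2.42 in GC cells, and Ccr9 between -0.455 and 0.456, Runx2 between -2.26 and -0.195 and Pacsin1 between -0.60 and 0.01 in GC cells. In non-GC cells Siglech, Ccr9 and Runx2 turned without Ifnar1KO non-GC 3, Siglech also without Sle1b non-GC 3 (0.186), and Pacsin1 without Sle1b non-GC 2. In GC cells Ccr9 turned without Sle1b GC 3 or Ifnar1KO GC 3 (0.08) and Pacsin1 without Sle1b GC 2.

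Quantile normalization gave a median over all items of -0.07 in place of -0.39 for Ifnar1KO GC against non-GC cells and of -0.03 in place of -0.25 for the genotypes in GC cells. It gave 0.04 for Ccr9 and 0.298 for Pacsin1 in the comparison of Ifnar1KO gates and 0.47 for Ccr9 between genotypes in GC cells. For GC against non-GC cells, a pseudocount of 0.1 gave -3.93 for Siglech and -3.33 for Klk1 in Ifnar1KO mice, and -3.87 for Siglech and -6.26 for Cst3 in Sle1b mice, and 0.5 gave -4.58 for Cst3. With B cell markers held level, an alternative chosen after seeing the data, Siglech was at -1.455 and Cst3 at -3.25 in Sle1b mice and Pacsin1 at 0.21 in Ifnar1KO mice. Single libraries moved this comparison between -2.58 and -1.29 for Siglech, -4.49 and -3.17 for Cst3 in Sle1b mice, and between -3.05 and -1.15 for Siglech, -1.95 and -0.889 for Klk1, -1.43 and -0.092 for Cst3 and -0.97 and -0.18 for Ccr9 in Ifnar1KO mice.

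The median genotype difference of the 30-gene list in GC cells was -0.49 at a pseudocount of 0.1, -0.279 at 0.5, -0.004 with no filter, -0.326 with a filter of 5 FPKM, -0.189 with tables averaged, 0.009 with quantile normalization, -0.246, -0.234 and 0.007 without batches 1, 2 and 3, and -0.315 to 0.026 without single libraries. At a pseudocount of 0.1 its medians of GC against non-GC cells were -1.43 in Ifnar1KO and -0.909 in Sle1b mice. For relatives and partners, the GC genotype median was -0.542 at that pseudocount. Their non-GC genotype median was 0.306 without batch 2 and 0.054 to 0.3 without single libraries. Their median of Sle1b GC against non-GC cells was 0.004 without batch 2 and -0.53 to 0.213 without single libraries, the highest without Sle1b non-GC 2, and that of Ifnar1KO mice was -0.305 with no filter. The cause of these changes was not tested. The Klk1 levels rest on few reads.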

Other observations

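A few genes of the lists described above stood high in a few libraries. Klk1b8, a kallikrein gene beside Klk1, was at 24.2 FPKM in Sle1b GC cells of batch 1 and at 11.5 and 11.6 FPKM in Ifnar1KO GC and Sle1b GC cells of batch 3, and at 0.589 FPKM or less in the other 9 libraries. S100a8 and S100a9, which neutrophils and monocytes make in quantity, were at 59.1 and 68.6 FPKM in Sle1b GC cells of batch 1 and at 15.7 FPKM or less in the other 11 libraries. Itgae, an integrin chain of some dendritic and T cells, was at 298 FPKM in Sle1b GC cells of batch 3, at 27.1 FPKM in Ifnar1KO GC cells of batch 2 and at 12.4 FPKM or less elsewhere. These genes were picked after their values were seen, and no test was run on the pattern.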
